A study of Mus musculus with 11 samples.

Results

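The contacts described here join the Gli2-Inhbb interval of mouse chromosome 1 to the En1 domain, over more than 1 Mb. They form a rectangle in a capture Hi-C map of 10 kb bins. Its first side runs from 120670001 to 121360000 (mm9, as in the deposited maps), without the 20 kb that end at 120960000, and holds 67 bins. Its second side runs from 122510001 to 123080000 and holds 57 bins. The rectangle has 3819 bin pairs, 1160 to 2400 kb apart, out of 88410 bin pairs in the mapped region and out of 51040 that lie above 1 Mb. The intervals were chosen on contact limits seen in these same 4 maps, with their long-range contact level known. The level and pattern of the rectangle are therefore given as a description, with no test.

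En1 encodes engrailed-1, a homeodomain transcription factor that patterns the ventral side of the limb bud and the midbrain-hindbrain region. Maenli is a long non-coding RNA gene near En1 whose transcription activates En1 in the limb. Gli2 encodes a zinc-finger transcription factor of the Hedgehog pathway, and Inhbb the beta-B subunit of activins and inhibins. Hi-C counts how often pairs of DNA segments are ligated together after crosslinking, and the capture step enriches for a chosen region with probes. Contacts fall with distance along the chromosome and are denser within domains than across the limits between them, so a long-range contact is read against the mean of its distance.

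The study compared 4 groups of mouse embryos at E9.5, from 11 libraries of dissected tissue that was dissociated, fixed and digested with DpnII. Wild-type forelimb, wild-type forebrain and wild-type midhindbrain boundary had 3 libraries each. Forelimb carrying a stop cassette insertion had 2. The labels give all libraries the strain c57bl6.J X 129S6.sv, while the names of the wild-type forelimb libraries carry CD1, the name of an outbred mouse stock. The labels state neither the site of the cassette nor how many embryos were pooled. Whole tissue was used, so each map is a mean over its cell types. The authors merged the libraries of a group into 1 map, which leaves no spread between replicates, so each ratio compares 2 maps and not 2 conditions.

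The raw maps held 7662227 to 9523316 contacts, of which 4215764 to 5471344 joined bins at least 30 kb apart. Of the latter, 11.0% lay above 1 Mb for wild-type forelimb, 10.8% for forebrain, 10.3% for midhindbrain boundary and 13.4% for stop-cassette forelimb. Intervals in brackets are 95% counting intervals from the raw contacts. They cover counting error only, with the raw contacts taken as independent molecules, which was not checked. Differences between libraries or embryos are not in them.

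The contact level of the rectangle differed between the 4 maps, and stop-cassette forelimb had the highest. The level is the sum of the Knight-Ruiz balanced signal over the sum expected from the distance means of the same map, so that 1 is the mean of the region at those distances. It was 1.11 (1.10 to 1.12) for stop-cassette forelimb, from 57174 raw contacts. Wild-type forelimb lay at the distance mean, at 0.992 (0.983 to 1.000), from 55654 contacts. Forebrain had 0.925 (0.917 to 0.934), from 48998 contacts. Midhindbrain boundary was lowest, at 0.810 (0.802 to 0.819), from 40239 contacts. No pair of these 4 counting intervals overlapped.

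The order was the same in the raw contacts. The rectangle took 10.1% of all contacts above 1 Mb in stop-cassette forelimb (10.0 to 10.2%). Its share was 9.21% for wild-type forelimb (9.14 to 9.29%), 8.51% for forebrain (8.44 to 8.58%) and 7.38% for midhindbrain boundary (7.31 to 7.45%). These shares stand beside the 7.48% of bin pairs above 1 Mb that the rectangle holds, but its pairs are among the shorter of those distances. A single bin pair was thinly covered, with a median of 10 to 14 raw contacts, a maximum of 36 to 47, and 5 to 14 of the 3819 pairs at 0. Values of single pairs were therefore not read, and contacts were summed over bins, sub-intervals and blocks of 100 kb.

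Within the rectangle, all 4 maps showed the same gradient of the level. It was low where the Inhbb end faces the near end of the En1 domain and high where the Gli2 end faces its far end. Blocks and corners are called dense or sparse by level, not by raw contacts. Here the near end is the one towards the Gli2-Inhbb interval. In the 42 blocks of 100 kb, the level ran from 0.698 to 1.32 for wild-type forelimb (median 1.01). It ran from 0.698 to 1.251 for forebrain (median 0.983), from 0.569 to 1.14 for midhindbrain boundary (median 0.866) and from 0.806 to 1.53 for stop-cassette forelimb (median 1.13). The pattern of these 42 blocks was alike between maps, with Pearson's r of 0.815 to 0.929 over the 6 pairs of maps, given as a description because neighbouring blocks share bins.

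The densest block had the same Gli2 side in every map, 120770001 to 120870000. Its partner was 123010001 to 123080000 for wild-type forelimb, at 1.32 (1.24 to 1.42), and for midhindbrain boundary, at 1.14 (1.05 to 1.23). In forebrain it was 122910001 to 123010000, at 1.251 (1.18 to 1.33), and the same partner led in stop-cassette forelimb, at 1.53 (1.45 to 1.62). The sparsest block lay at the opposite corner. In the 3 wild-type maps it joined 121270001 to 121360000 with 122510001 to 122610000, at 0.698 for wild-type forelimb, 0.698 for forebrain and 0.569 for midhindbrain boundary. In stop-cassette forelimb it lay next to that, with 122610001 to 122710000, at 0.806 (0.763 to 0.851).

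**Figure D1:**
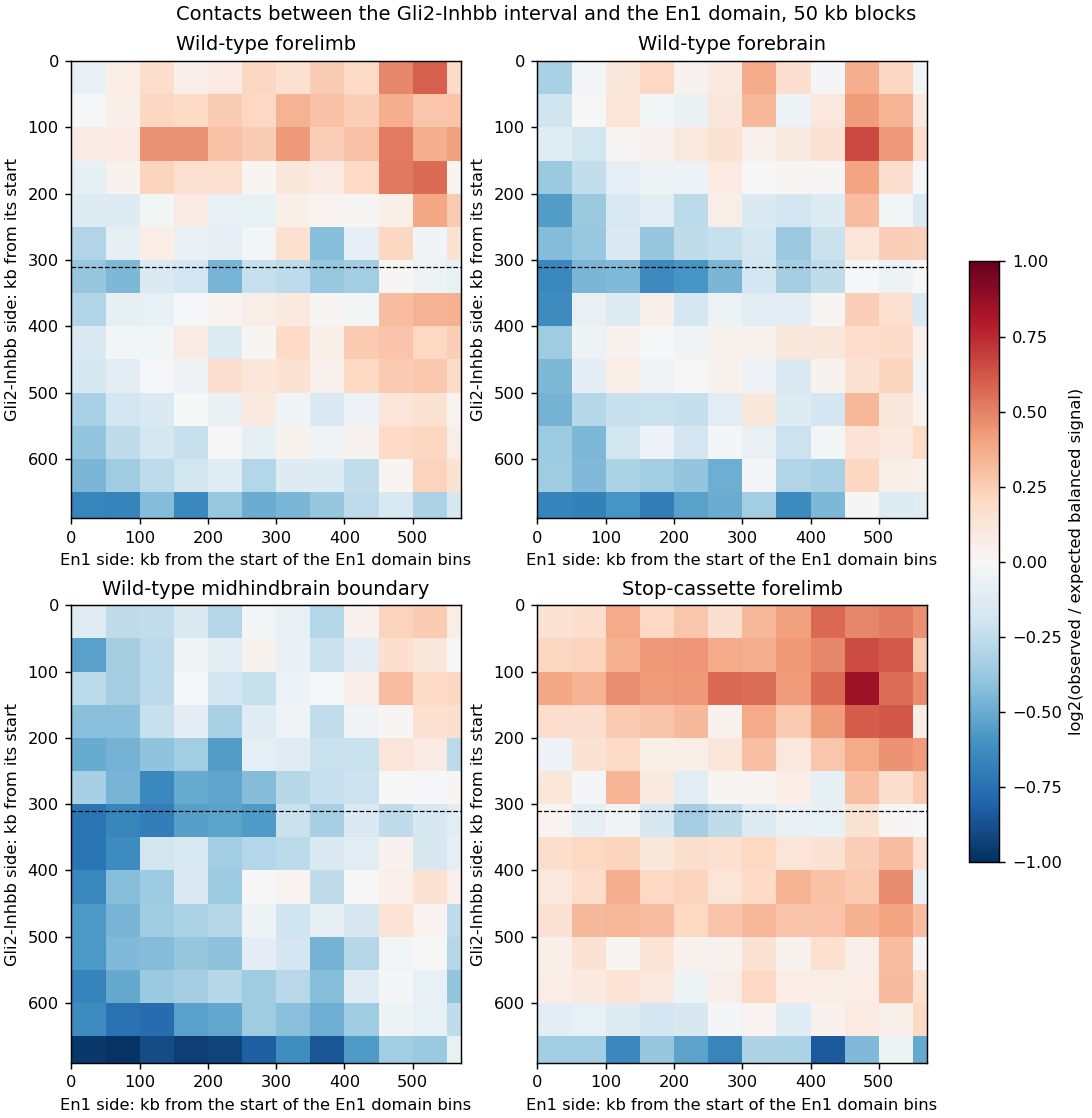
Contact level of the rectangle in blocks of 50 kb, observed over expected, for the 4 maps, with kb from the start of the En1 side across and kb from the start of the Gli2-Inhbb side down. The colour scale is log2, red above and blue below the distance mean, and the dashed line marks the limit between the Gli2 part and the Inhbb part. The stop-cassette forelimb map is densest and the midhindbrain boundary map sparsest, while the sparse and dense corners are the same.

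The maps of 50 kb blocks show this gradient for each group, with the dense corner and the sparse corner in the same places. Distance and position partly move together in the rectangle, because the Gli2 end and the far end of the En1 domain are also the farthest apart. In wild-type forelimb, pairs 1160 to 1500 kb apart had a level of 0.823, those 1510 to 2000 kb apart 1.01, and those 2010 to 2400 kb apart 1.195. The same 3 distance classes had 0.778, 0.938 and 1.11 for forebrain. They had 0.660, 0.830 and 0.998 for midhindbrain boundary, and 0.974, 1.11 and 1.33 for stop-cassette forelimb. The level thus rose with distance in every map although each pair is set against the mean of its own distance. Levels also differed at a single separation. Among the 6 blocks whose starts lie 1840 kb apart, they ran from 0.925 to 1.251 for wild-type forelimb, from 0.883 to 1.09 for forebrain, from 0.768 to 1.01 for midhindbrain boundary and from 1.03 to 1.28 for stop-cassette forelimb.

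The Gli2-Inhbb interval was divided at a limit chosen in advance. This gives a Gli2 part of 29 bins, which ends at 120980000, and an Inhbb part of 38 bins. They are named by the order of the genes in the interval's name. Contacts across that limit, at 30 kb or more, were below the distance mean in all 4 maps, at 0.829 to 0.917. Contacts inside each part were above it, at 1.16 to 1.19 in the Gli2 part and 1.08 to 1.17 in the Inhbb part. Inside the En1 domain the level was 1.09 to 1.13. The limits of the parts and of the En1 domain were chosen with earlier results of these maps known. These values therefore describe the parts and the domain and do not test them. In the gene order of a newer assembly (GRCm38.p6, RefSeq), no protein-coding gene lies between Gli2 and Inhbb, 13 lie between Inhbb and En1, and none lies between En1 and Insig2. Gene positions in mm9 were not used here, so bins are not assigned to genes.

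The Gli2 part, although farther away, met the En1 domain more often relative to distance than the Inhbb part did. In wild-type forelimb its level was 1.10 (1.08 to 1.11), against 0.936 (0.925 to 0.946) for the Inhbb part. The forebrain values were 0.989 and 0.891, and those of midhindbrain boundary 0.878 and 0.776. Stop-cassette forelimb had 1.23 (1.21 to 1.24) and 1.05 (1.04 to 1.06). The counting intervals of both parts were separate in each map.

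Along the Gli2-Inhbb interval, the level was highest around 120800001 and fell towards the Inhbb end with a dip at the limit between the parts. The 50 kb from 120770001 had a level of 1.24 for wild-type forelimb, 1.09 for forebrain, 0.947 for midhindbrain boundary and 1.41 for stop-cassette forelimb. The 50 kb from 120970001, which span the limit, had 0.834, 0.773, 0.731 and 0.942 in the same order. The level then recovered over the next 50 kb, to 1.02, 0.945, 0.823 and 1.14. It was lowest in the last 40 kb, from 121320001, at 0.731, 0.717, 0.592 and 0.740. There the stop-cassette and wild-type forelimb maps no longer differed beyond counting error.

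The single bin with the highest level began at 120800001 for wild-type forelimb (1.299), forebrain (1.14) and stop-cassette forelimb (1.53). In midhindbrain boundary it began at 120770001 (1.05, with a counting interval of 0.969 to 1.15 that holds 1). The number of the 67 bins above 1 was 34 for wild-type forelimb, 24 for forebrain, 2 for midhindbrain boundary and 54 for stop-cassette forelimb. On the En1 side, 29 of 57 bins were above 1 for wild-type forelimb, 15 for forebrain, 6 for midhindbrain boundary and 50 for stop-cassette forelimb.

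Along the En1 domain, the level rose from its near end to its far end in all 4 maps, with a smaller rise for the stop-cassette map than for its wild-type counterpart. The domain was divided into a near, a middle and a far stretch of 190 kb each, a division made after the block values had been seen. Wild-type forelimb had 0.916 (0.904 to 0.928) in the near stretch, 1.00 in the middle and 1.09 (1.07 to 1.11) in the far stretch. Forebrain had 0.835, 0.942 and 1.04, and midhindbrain boundary 0.719, 0.822 and 0.935. Stop-cassette forelimb had 1.08 (1.07 to 1.10), 1.10 and 1.17 (1.15 to 1.19).

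The highest En1-side bin began at 123010001 for wild-type forelimb (1.253) and forebrain (1.28). It began at 123020001 for midhindbrain boundary (1.09) and stop-cassette forelimb (1.40). The lowest was the bin from 122890001 in all 4 maps, at 0.678, 0.540, 0.483 and 0.733 in the order wild-type forelimb, forebrain, midhindbrain boundary, stop-cassette forelimb. That bin was thinly covered, with 154 to 240 contacts and a balancing factor of 0.410 to 0.470 beside a map median near 1. Its level therefore rests on few contacts.

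**Figure D2:**
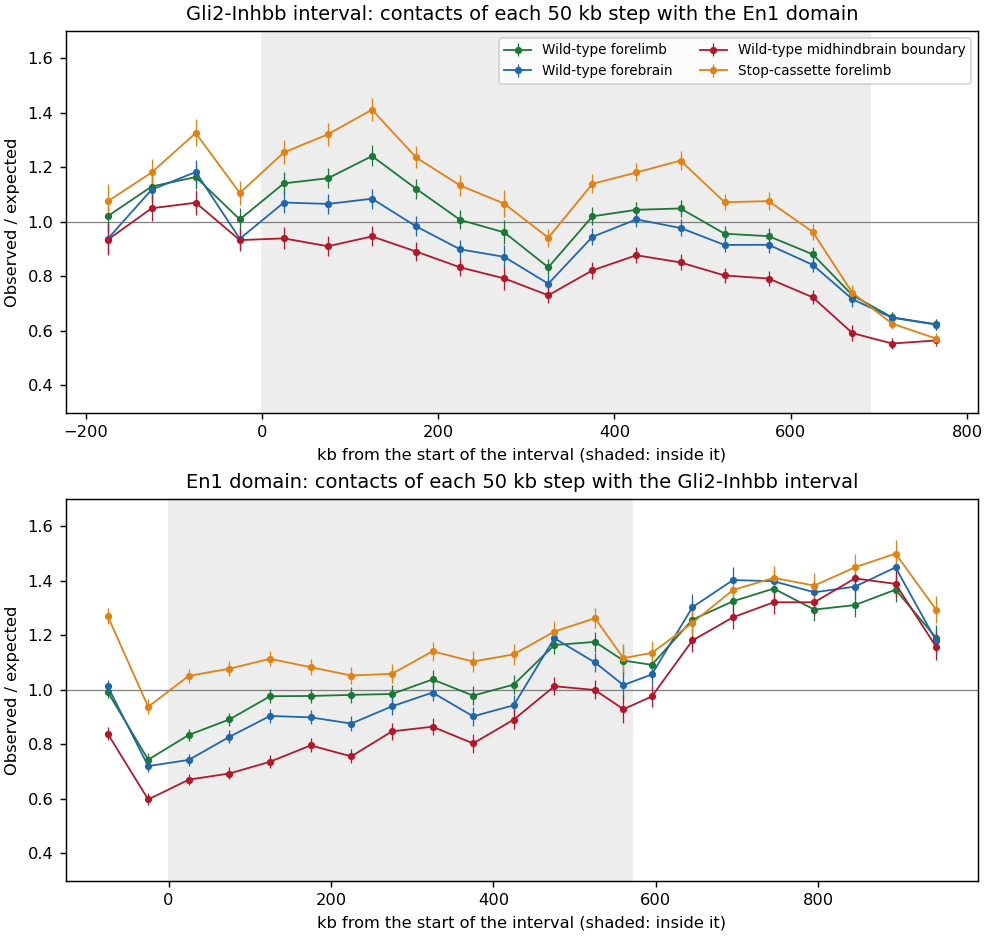
Contact level, observed over expected, in steps of 50 kb along the Gli2-Inhbb interval (top, contacts with the En1 domain) and along the En1 domain (bottom, contacts with the Gli2-Inhbb interval), against kb from the start of each side, with bars for the 95% counting interval, a line at 1 and grey shading inside the rectangle. Midhindbrain boundary lies lowest at every shaded step, and at 745 kb in the lower panel the 4 maps lie within 1.32 to 1.41.

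The profiles place the limits of the rectangle in their surroundings. At the Gli2 end the first bin inside, from 120670001, had 1.21 for wild-type forelimb, 1.10 for forebrain, 0.985 for midhindbrain boundary and 1.17 for stop-cassette forelimb. The bin just outside, from 120660001, had 0.919, 0.754, 0.739 and 0.912. That drop was local, since the 50 kb from 120570001, farther out, had 1.17, 1.18, 1.07 and 1.33. At the Inhbb end there was no step: the last bin inside had 0.709, 0.622, 0.600 and 0.664, and the first outside 0.655, 0.703, 0.551 and 0.690.

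At the near end of the En1 domain the lowest bin lay outside the rectangle, from 122470001, at 0.586, 0.579, 0.476 and 0.679 in the same order. The next bin towards the Gli2-Inhbb interval, from 122460001, rose to 0.864, 0.952, 0.671 and 1.22. The first bin inside the rectangle, from 122510001, had 0.800, 0.680, 0.663 and 1.04, within counting error of the 0.779, 0.695, 0.637 and 0.997 of the bin just outside. At the far end, the last bin inside (1.06, 0.965, 0.937 and 1.11) and the first outside (1.07, 0.947, 0.897 and 1.11) did not differ beyond counting error. After a dip around this edge, the level rose past the far end, to 1.37, 1.40, 1.32 and 1.41 in the 50 kb from 123230001.

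The bins left out of the Gli2-Inhbb interval by the rule were not empty. The first had 0.989 for wild-type forelimb, 0.837 for forebrain, 0.822 for midhindbrain boundary and 1.00 for stop-cassette forelimb. The second, up to 120960000, had 0.872, 0.834, 0.783 and 1.06. These are close to their neighbours on either side, at 1.02, 0.941, 0.829 and 1.03 from 120930001 and 0.837, 0.772, 0.741 and 0.968 from 120960001.

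The 4 corners of 50 kb show how far the gradient reached. Between the Gli2 end and the far end of the En1 domain the level was 1.29 for wild-type forelimb, 1.03 for forebrain, 1.16 for midhindbrain boundary and 1.38 for stop-cassette forelimb. Between the Inhbb end and the near end it was 0.661, 0.682, 0.554 and 0.811. The Gli2 end by the near end had 0.946, 0.797, 0.917 and 1.11, and the Inhbb end by the far end 0.862, 0.932, 0.817 and 0.849. Each corner holds only 185 to 450 contacts, and at both corners of the Gli2 end midhindbrain boundary was not the lowest map. Its ratio to forebrain was 1.15 (0.967 to 1.37) by the near end and 1.13 (0.915 to 1.39) by the far end. Both are within counting error of 1.

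The comparison of wild-type forelimb with midhindbrain boundary, tissues that both use En1, gave the largest difference of the 4 comparisons made. The rectangle was 1.22-fold denser in wild-type forelimb (1.21 to 1.24). All 42 blocks were denser there, by 1.08- to 1.39-fold, with a median of 1.22, while the median over all 514 blocks above 1 Mb was 1.00. A block was called where the maps differed by at least 25% upwards or 20% downwards, which is the same fold either way, and the counting interval left out 1. By this rule 10 of the 42 blocks (23.8%) were called denser in wild-type forelimb, beside 3.89% of all blocks, and they make up 10 of the 20 called in the whole region. None of the 42 was called denser in midhindbrain boundary, beside 2.53% of all blocks. The count depends on the rule: 24 of 42 (57.1%, beside 8.95% of all blocks in either direction) were called with a distance mean that leaves out the rectangle, 74 of 168 blocks of 50 kb (44.0%, beside 11.5%), and 0 at a fold of 1.5.

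The block with the largest of these differences joined 120770001 to 120870000 with 122610001 to 122710000. Its level was 1.251 for wild-type forelimb, from 1938 contacts, and 0.898 for midhindbrain boundary, from 1239, a ratio of 1.39 (1.29 to 1.499). The next, from 120870001 to 120970000 with the same partner, had 1.01 and 0.733, a ratio of 1.38 (1.26 to 1.51). By stretch of the En1 domain the ratio was 1.27 (1.247 to 1.301) near, 1.22 in the middle and 1.17 (1.14 to 1.197) far. The near ratio was 1.09-fold the far one (1.06 to 1.13). Of single bins, 66 of 67 on the Gli2-Inhbb side and 57 of 57 on the En1 side were denser in wild-type forelimb.

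Wild-type forelimb and forebrain differed less. The rectangle was 1.07-fold denser in wild-type forelimb (1.06 to 1.09). Of the 42 blocks 38 were denser there, over a range of 0.969 to 1.27 with a median of 1.08, beside a median of 0.999 over all blocks. Only 1 block was called denser in wild-type forelimb (2.38%, beside 2.72% of all blocks) and none denser in forebrain (beside 0.389%), so the share of called blocks was near the background. In blocks of 50 kb 7.14% of 168 were called, all 12 denser in wild-type forelimb, beside 6.62% of all in either direction. The background by direction was not counted at that size, so these shares are near each other only with both directions pooled. The called block of 100 kb was again 120770001 to 120870000 with 122610001 to 122710000. Its level was 1.251 for wild-type forelimb and 0.984 for forebrain, a ratio of 1.27 (1.18 to 1.37). The difference was larger for the Gli2 part, at 1.11 (1.09 to 1.13), than for the Inhbb part, at 1.05 (1.03 to 1.07). The Gli2 part's ratio was 1.06-fold the other (1.03 to 1.08).

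Between the brain tissues, the rectangle was sparser in midhindbrain boundary, at 0.876 of the forebrain level (0.864 to 0.888). Of the 42 blocks 41 were sparser there, with ratios of 0.772 to 1.00 and a median of 0.892, beside 0.995 over all blocks. Just 1 block was called sparser in midhindbrain boundary (2.38%, beside 0.778% of all blocks) and none denser (beside 4.47%). In blocks of 50 kb 16.7% of 168 were called, beside 9.60% of all in either direction. That block joined 120670001 to 120770000 with 122810001 to 122910000, at 0.895 for midhindbrain boundary, from 671 contacts, and 1.16 for forebrain, from 942. Its ratio was 0.772 (0.696 to 0.857). These comparisons share maps, so they are not independent of one another.

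**Figure D3:**
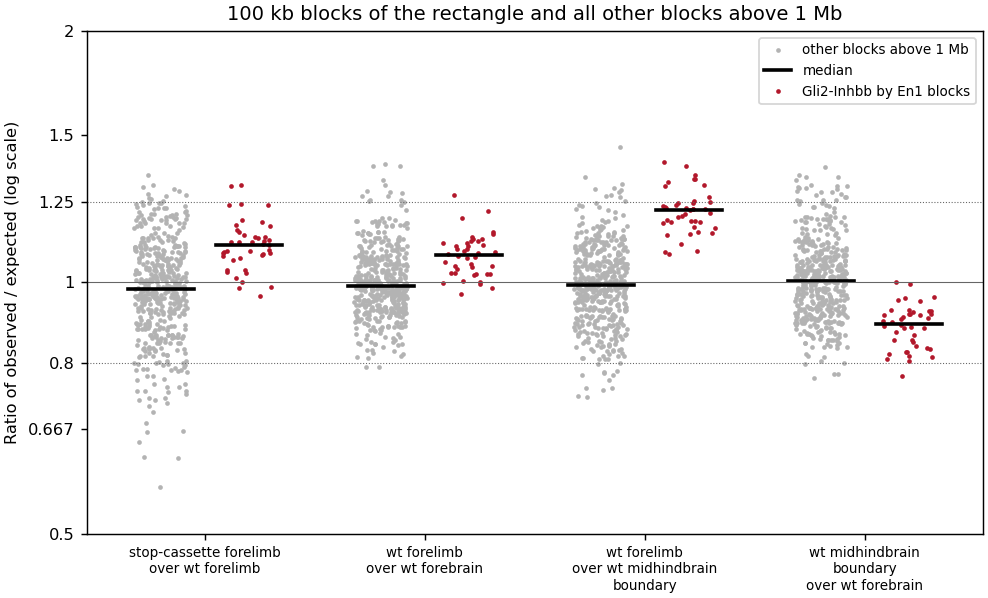
Ratio of contact level between maps for the 42 blocks of 100 kb of the rectangle (red) and for the other 472 blocks above 1 Mb (grey), on a log axis, 1 point per block, with black bars for the medians and dotted lines at the fold used for calls. The rectangle's blocks lie above 1 in 42 of 42 for wild-type forelimb over midhindbrain boundary and below 1 in 41 of 42 for midhindbrain boundary over forebrain, while the medians of the other blocks lie at 0.983 to 1.00.

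The plot of block ratios sets the members beside the other long-range blocks of the region. Over all 514 blocks, the counting interval left out 1 in 36.2% for wild-type forelimb over midhindbrain boundary and in 24.5 to 40.5% over the 4 comparisons, beside the 5% that counting error alone gives. The maps thus differed by more than their counts allow for at many places, and an interval that leaves out 1 is common in the region. The middle 90% of all blocks had ratios from 0.829 to 1.24 in that comparison, a span that holds the member median of 1.22.

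The stop-cassette insertion was compared with wild-type in forelimb. The rectangle was 1.12-fold denser in the stop-cassette map (1.11 to 1.13). Of the 42 blocks 39 were denser there, with ratios of 0.963 to 1.31 and a median of 1.11, beside 0.995 over all blocks. By the same rule 2 blocks (4.76%, beside 2.53% of all blocks) were called denser and none sparser (beside 7.39%). In blocks of 50 kb 13.1% of 168 were called, 21 denser and 1 sparser, beside 13.9% of all in either direction. These shares are near each other only with both directions pooled, and the background by direction was not counted at 50 kb. Both called blocks had the near end of the En1 domain, 122510001 to 122610000, as partner. With 120970001 to 121070000 the level was 1.06 for stop-cassette forelimb, from 1786 contacts, and 0.812 for wild-type forelimb, from 1534, a ratio of 1.31 (1.22 to 1.40). With 121170001 to 121270000 it was 1.07 and 0.817, also a ratio of 1.31 (1.23 to 1.39).

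The difference between the forelimb maps fell from the near to the far end of the En1 domain, for contacts of the Inhbb part. Over the near stretch the ratio was 1.18 (1.16 to 1.203), over the middle 1.09 (1.07 to 1.12) and over the far stretch 1.07 (1.05 to 1.10). The near ratio was 1.10-fold the far one (1.07 to 1.14). For the Inhbb part the level in the near stretch was 1.04 for stop-cassette and 0.852 for wild-type forelimb, a ratio of 1.21 (1.19 to 1.24), and in the far stretch 1.08 and 1.04, a ratio of 1.03 (1.00 to 1.07). For the Gli2 part the ratio was 1.12 (1.09 to 1.16) in the near and 1.13 (1.09 to 1.17) in the far stretch, so near over far was 0.996 (0.949 to 1.04) there and 1.17 (1.13 to 1.22) for the Inhbb part. Over the whole En1 side, both parts had a ratio of 1.12.

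The stop-cassette map also differed from wild-type forelimb in its contacts by distance as a whole, with more of them far apart. Per bin pair and 1000000 contacts at 30 kb or more, it had 4.62 contacts at 1010 to 1500 kb against 3.97, 2.78 at 1510 to 2000 kb against 2.20, and 1.75 at 2010 to 2400 kb against 1.38. Without setting each map against its own distance mean, per 1000000 contacts at 30 kb or more, the rectangle was 1.33-fold denser in the stop-cassette map (1.32 to 1.35). Within the rectangle's 3 distance classes, from short to long, the ratio of the levels was 1.18 (1.15 to 1.22), 1.10 (1.08 to 1.12) and 1.12 (1.08 to 1.15). The part of this excess of long-range contacts in the difference was not tested.

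**Figure D4:**
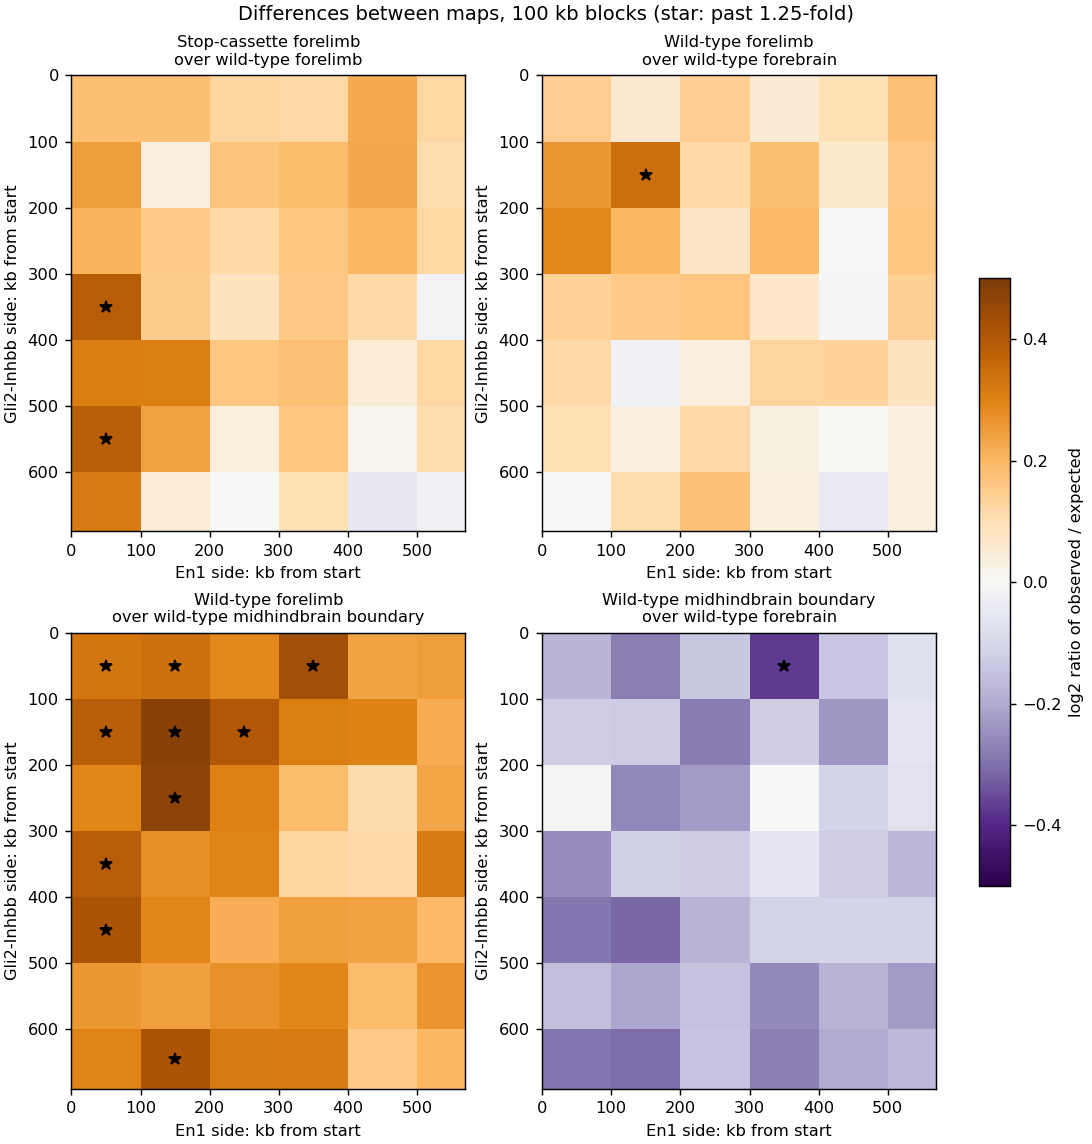
Log2 ratio of contact level between maps for the 42 blocks of 100 kb in the 4 comparisons, with kb from the start of the En1 side across, kb from the start of the Gli2-Inhbb side down, orange for denser and purple for sparser in the first-named map, and stars on called blocks. Stars stand on 2, 1, 10 and 1 blocks, and both stars of the stop-cassette comparison lie in the first 100 kb of the En1 side.

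The plot of log2 ratios by block shows where in the rectangle the maps differed. In the Gli2 part, the Inhbb part and the 3 stretches of the En1 domain, each of the 4 comparisons kept the direction it had over the whole rectangle. The order stop-cassette forelimb, wild-type forelimb, forebrain, midhindbrain boundary, from dense to sparse, held in 35 of the 42 blocks. Stop-cassette forelimb was the densest map in 39 and midhindbrain boundary the sparsest in 41. In 6 blocks the level was above 1 in all 4 maps and in 6 it was below 1 in all.

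Neighbouring rectangles of the same maps show how far the order of the maps extends. The bins left of the Gli2-Inhbb interval, from 120200001 to 120670000, met the En1 domain at 1.13 for wild-type forelimb, 1.13 for forebrain, 1.12 for midhindbrain boundary and 1.16 for stop-cassette forelimb. There the wild-type maps did not differ beyond counting error, with a wild-type forelimb over midhindbrain boundary ratio of 1.01 (0.988 to 1.03). The Gli2-Inhbb interval met the 390 kb beyond the En1 domain at 1.28, 1.32, 1.252 and 1.34, and there forebrain was denser than wild-type forelimb. The bins between the intervals, from 121360001 to 122470000, met the En1 domain at 0.735, 0.725, 0.688 and 0.676, so that stop-cassette forelimb was the sparsest of the 4 maps. Only bin pairs above 1 Mb apart entered the neighbours, here 2451, so the bins in between that lie closest to the En1 domain gave none.

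Over the 3002 bin pairs above 1 Mb apart, the Gli2-Inhbb interval met those bins in between at 1.02 for wild-type forelimb and 1.08 for forebrain. The level there was 0.949 for midhindbrain boundary and 1.16 for stop-cassette forelimb. Of the 4 neighbours this was the most like the rectangle. The stop-cassette over wild-type forelimb ratio was 1.13 (1.12 to 1.15) there and 1.12 in the rectangle, and the rectangle's was 0.988-fold the neighbour's (0.972 to 1.00), an interval that holds 1. The midhindbrain boundary over forebrain ratio was 0.876 in both, and their quotient 1.00 (0.982 to 1.02). Neither comparison separated the rectangle from this neighbour. Wild-type forelimb over forebrain did separate them, at 1.07 in the rectangle and 0.945 (0.935 to 0.955) in the neighbour.

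Wild-type forelimb over midhindbrain boundary was larger in the rectangle than in each of the 4 neighbours, by 1.13- to 1.21-fold. It was 1.13-fold (1.11 to 1.15) the ratio of the Gli2-Inhbb interval with the bins between and 1.15-fold (1.12 to 1.17) that of those bins with the En1 domain. It was 1.20-fold (1.17 to 1.23) the ratio beyond the En1 domain and 1.21-fold (1.18 to 1.24) the ratio of the bins left of the Gli2-Inhbb interval. The neighbours span other distances, 1010 to 2870 kb in all, and these quotients have counting error only.

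**Figure D5:**
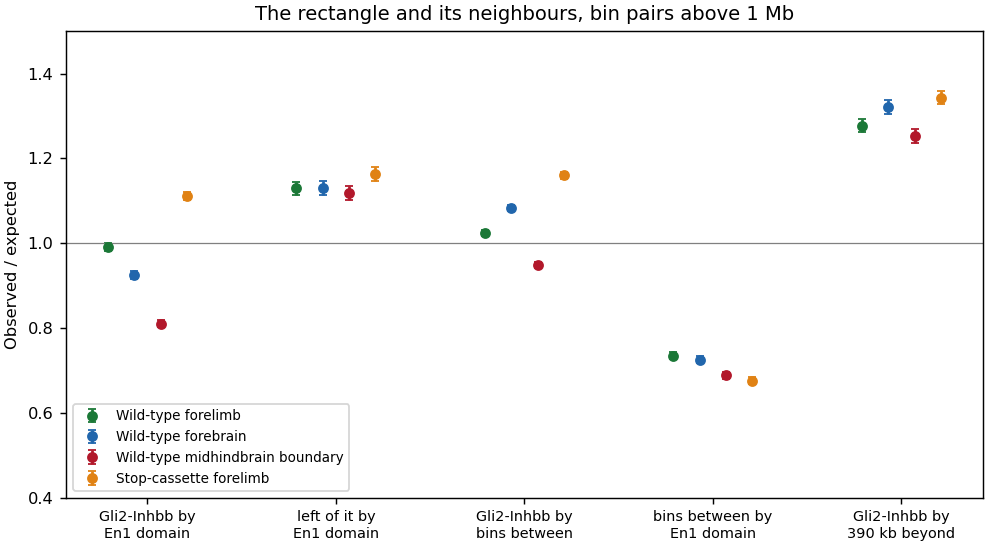
Contact level of the rectangle and of 4 neighbouring rectangles in the 4 maps, bin pairs above 1 Mb apart, observed over expected, with bars for the 95% counting interval and a line at 1. The maps are spread from 0.810 to 1.11 in the rectangle and from 1.12 to 1.16 for the bins left of it, while stop-cassette forelimb is lowest, at 0.676, for the bins between the intervals.

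The plot of neighbouring rectangles shows the widest spread between the 4 maps in the rectangle itself. The bins of the rectangle were covered a little better than the rest of the region. The median balancing factor, which scales each bin's coverage, was 1.10 to 1.15 on the Gli2-Inhbb side and 1.06 to 1.09 on the En1 side, beside 0.997 to 1.00 over all bins. Without balancing, the level was 1.22 for wild-type forelimb, 1.13 for forebrain, 0.997 for midhindbrain boundary and 1.298 for stop-cassette forelimb, so that the place of a level above or below 1 depends on the balancing and the order of the maps does not.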

How the data were processed

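Capture Hi-C maps of 4 groups were used as deposited, each in 2 forms of 10 kb bins: raw contact counts and Knight-Ruiz balanced signal. The authors merged the libraries of a group and kept read pairs of mapping quality 30, per the labels, which also name HiCUP. Bowtie2 2.3.4.1, Juicer 1.7.6 and mm9 are given in the submitters' processing notes. Raw counts were found to equal the signal times 1 factor for each bin. From these, the balanced signal was divided by the mean of its distance over all bin pairs of the same map, and summed over the rectangle, its parts and blocks. Intervals are 95% Poisson intervals of the counts with the factors held. Differences of 100 kb blocks of at least 25% up or 20% down whose interval left out 1 were called, and read beside all 514 blocks above 1 Mb. Blocks with any bin pair at 1 Mb or less were left out. So were pieces outside the rectangle with under 25% of the bin pairs of a full block. Named blocks are the highest and lowest of each map and up to 2 called blocks a direction with the largest fold, with edges, corners and excluded bins. The members, parts and lists were chosen with earlier results of these data known. The code was tested on simulated data with a distance mean that leaves out the rectangle, unlike the main levels and ratios. Python 3.11.15, numpy 2.4.6, scipy 1.17.1 and pandas 2.3.3 were used. Balancing and distance mean, edges, thin bins, scaling, block size and fold were varied.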

Additional observations from a re-analysis of the deposited data

How the results depend on the processing

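The order of the 4 maps was the same under the main setting and all 5 alternatives to the level, and all 4 ratios kept their direction in every alternative run. Of 60 alternative levels and ratios, 31 stayed within the counting interval of the main value, and 4 levels came to lie on the other side of 1. Of 16 alternative counts of called blocks, 3 stayed within 1.5 times the main count. In the order wild-type forelimb, forebrain, midhindbrain boundary, stop-cassette forelimb, the level without balancing was 1.22, 1.13, 0.997 and 1.298, so that wild-type forelimb and forebrain moved from below to above 1. Trimmed by 50 kb at each edge it was 1.02, 0.959, 0.840 and 1.14. With counts over expected counts it was 1.00, 0.937 and 1.13 in wild-type forelimb, forebrain and stop-cassette forelimb. Wild-type forelimb, whose main interval reaches 1.000, also came to lie above 1 in these last settings, trimmed and with expected counts. With a distance mean that leaves out the rectangle it was 0.915, 0.785 and 1.14 in forebrain, midhindbrain boundary and stop-cassette forelimb. Without thin bins (2 among the members, under 0.5 of the median factor) no level or ratio moved beyond its interval.

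The stop-cassette over wild-type forelimb ratio was 1.07 without balancing, 1.14 with the distance mean without the rectangle, 1.33 per 1000000 contacts at 30 kb or more and 1.10 as a share of contacts above 1 Mb. Wild-type forelimb over forebrain was 1.09 with that distance mean and 1.11 per 1000000. Wild-type forelimb over midhindbrain boundary was 1.27, 1.34 per 1000000 and 1.248 as a share. Midhindbrain boundary over forebrain was 0.858 and 0.831. In the near, middle and far stretch, alternatives chosen after seeing the data, the stop-cassette ratio without balancing was 1.12, 1.04 and 1.02 (0.9995 to 1.05). The cause of these moves was not tested.

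Called member blocks changed with the rule. The comparisons follow in the order stop-cassette over wild-type forelimb, wild-type forelimb over forebrain, wild-type forelimb over midhindbrain boundary and midhindbrain boundary over forebrain. Of 168 blocks of 50 kb, 22, 12, 74 and 28 were called (13.1, 7.14, 44.0 and 16.7%, beside 13.9, 6.62, 11.5 and 9.60% of all 2053). With both directions pooled, the first and second were near the background. The stop-cassette calls were 21 denser and 1 sparser, and all 12 of the second comparison were denser in wild-type forelimb. At 1.5-fold the counts were 0, 0, 0 and 0 of 42, beside 1.17, 0, 0 and 0% of all blocks. Without balancing 1 block was called in the stop-cassette (2.38%, beside 6.61% of all) and 3 in the brain comparison (7.14%, beside 4.86%). With the distance mean without the rectangle the counts were 4, 24 and 2 for the stop-cassette, midhindbrain boundary and brain comparisons (9.52, 57.1 and 4.76%, beside 9.53, 8.95 and 4.67% of all). With both directions pooled, only the second was above the background. All 4 stop-cassette calls in this setting were denser.

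No paired analysis was possible because the deposited maps merge the replicates of each group. For the same reason leaving out a replicate was not possible, and no spread between embryos is known. The rectangle's depth of 40239 to 57174 contacts limits single bin pairs, not the sums. The counting intervals left out 1 in more blocks over the whole region than counting error gives, so small differences between maps are less certain than the brackets show. The distance means come from the captured region alone, so a level is relative to it.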

Other observations

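Contacts across the limit inside the Gli2-Inhbb interval, between its Gli2 and Inhbb parts, ordered the wild-type maps the other way round from their contacts with the En1 domain. Across the limit the level was 0.917 (0.912 to 0.921) for midhindbrain boundary, 0.894 (0.890 to 0.899) for forebrain and 0.829 (0.825 to 0.833) for wild-type forelimb, with stop-cassette forelimb between, at 0.871 (0.866 to 0.876). Inside the Inhbb part, stop-cassette forelimb was lowest, at 1.08, beside 1.13 for wild-type forelimb, 1.17 for forebrain and 1.16 for midhindbrain boundary. These values were picked out after they were seen, and no test of them is possible with 1 map a group.

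The shape of the rectangle differed in how its blocks varied. The rows, along the Gli2-Inhbb side, took 81.8% of the variance of the 42 block levels in stop-cassette forelimb, 60.4% for wild-type forelimb, 43.0% for forebrain and 39.4% for midhindbrain boundary. The columns, along the En1 side, took 12.7%, 36.3%, 51.8% and 55.7% in the same order.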
